A study of Mus musculus with 6 samples.

Results

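The comparison set the liver of a calorie-restricted male mouse killed at 177 days against the liver of a male mouse killed at 17 days on ad libitum feeding. It used 4 of the 6 arrays of the series, chosen by mouse and array kind from the sample titles. Each liver was hybridised to array A and to array B, each with its own 8448 spots. The older mouse belonged to age group 2 and the younger to age group 1, so age and diet differed together and cannot be told apart. Both animals were male, and the strain, the degree of restriction and its start were not given in the labels. The unit of the younger age rests on the label alone. With 1 mouse per side no test was possible, and every difference describes these 2 livers only.

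At the younger labelled age a mouse pup is normally still suckling. In that phase the liver burns milk fat, expresses imprinted growth genes such as Igf2 and H19 at a declining level, and still carries dividing hepatocytes. After weaning it takes up the adult programme of sugar use, fat synthesis and sex-dependent metabolism. Calorie restriction, a lowered food intake without malnutrition, is known for reduced insulin-like growth factor signalling and for a shift of the liver towards gluconeogenesis, fat oxidation and autophagy. Gene lists for these processes, for protein synthesis and turnover, and for other liver cell types were therefore examined.

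The analysis started from 9663 spots with 1 gene symbol among 16896, which stood for 7151 genes. A spot entered where its scaled level, averaged over both mice, exceeded the 50th percentile on that kind of array. This left 4509 spots and 3851 genes. The filter can let a spot in through 1 mouse alone. Besides genes marked so below, Mt2, Gsto1 and Stat2 entered through the restricted mouse alone, and Ndufs3 through the 17-day mouse alone. A gene took the median of its entering spots, here called probes, and 3291 genes had only 1. Differences are log2 values of the restricted mouse minus the 17-day mouse after quantile normalization, so that 1 is a 2-fold difference.

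Log2 intensities of the mice correlated over spots with a Pearson r of 0.961 on array A and 0.975 on array B. On array A the 17-day mouse had a median intensity of 364.3 and the restricted mouse 375, and on array B 402.5 and 332.8. Hepatocyte markers were on the arrays for 9 genes of 38 listed, and 7 of these passed the filter, Alb and Apoa1 among them. Over all genes 3851 of 7151 passed, so this count alone does not check the labelled tissue. Of the 3851 genes, 3096 (80.4%) differed by less than 0.5 log2, and the median difference was -0.07. Values above 0 were found for 1651 genes (42.9%) and below 0 for 2196 genes (57.0%). At the 2-fold threshold 7 genes were higher in the restricted mouse (0.182%) and 32 were lower (0.831%), together 1.01% of genes. The lower genes were 82.1% of those apart, and 69.0% with median centring and 70.5% with normalization over 3 arrays.

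**Figure D1:**
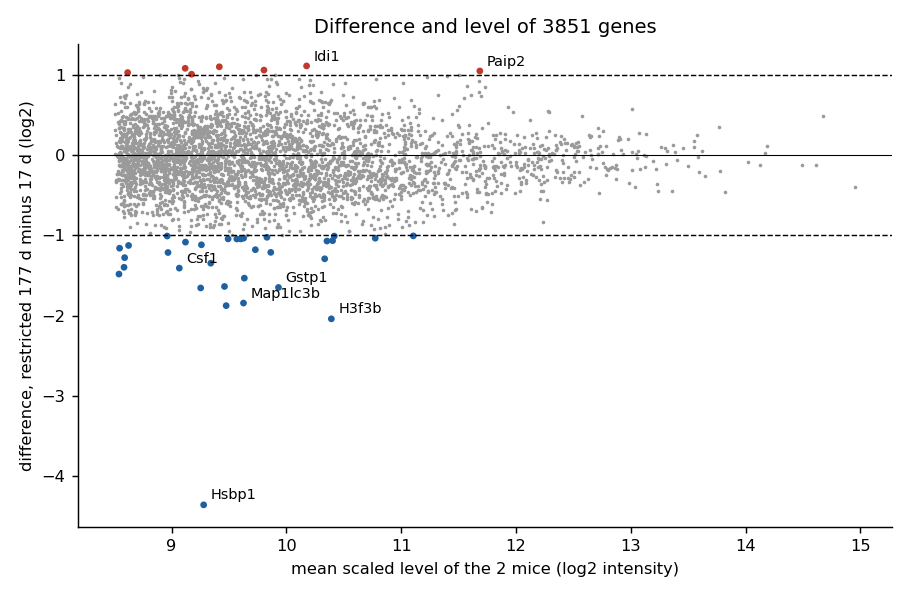
Each point is a gene, with its mean scaled level over both mice (log2 intensity) on the horizontal axis and its difference, restricted 177-day minus 17-day mouse (log2), on the vertical axis. Dashed lines mark 2-fold, red points the 7 higher and blue points the 32 lower genes. Most points lie between the lines, and Hsbp1 stands far below the rest at -4.36.

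Because no animal was repeated, spots that carry the same gene gave the available measure of error. Among 560 genes with at least 2 entering probes, all probes had the same sign in 276 (49.3%). The SD between probes of a gene, pooled over these genes, was 0.386 log2, against an SD of 0.409 over all entering spots. For 268 genes measured on both array kinds, the differences on A and on B had a Pearson r of 1.8e-05 and a Spearman correlation of 0.011. These are correlations across genes, which are not independent replicates. Probes of a gene thus differed from each other about as much as spots taken over all genes.

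**Figure D2:**
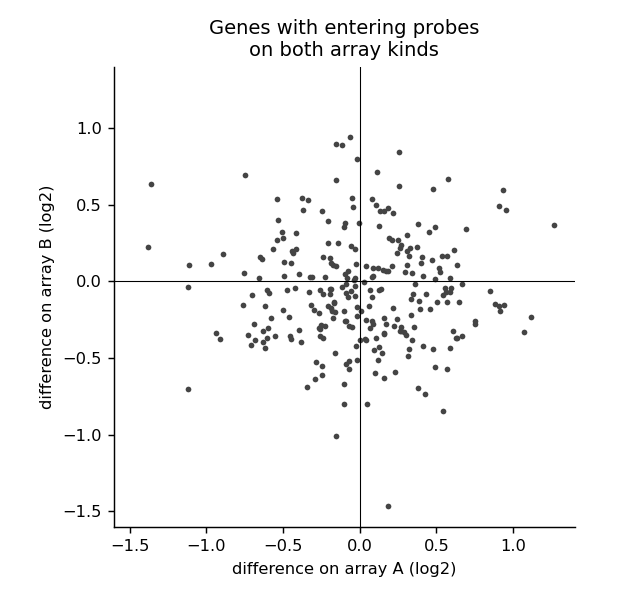
Each of 268 points is a gene with entering probes on both array kinds, with its difference on array A (log2) on the horizontal axis and on array B on the vertical axis. The points form a round cloud without a slope (Pearson r 1.8e-05).

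Differences also followed the order of the spots. On array A, spots lying 22 places apart in the list of spots had differences that correlated with r = 0.529, and spots 528 places apart with r = 0.50. On array B these values were 0.513 and 0.475, while next neighbours correlated less, at 0.271 (array A) and 0.298 (array B). Subtracting block medians (528 spots a block) and then the median at every position inside a block lowered the SD of the differences from 0.442 to 0.360 on array A and from 0.372 to 0.293 on array B. The pattern did not go away with this correction: spots 22 places apart then correlated with r = 0.347 on array A and 0.258 on array B, and spots 528 places apart with 0.249 and 0.166. Of the 162 genes named by rule, 13 changed sign with the correction, 47 kept it at less than 0.5 of the size and 8 at more than 1.5 times the size. For such genes the corrected value is given with the printed one. The part of spot position in any single difference was not tested.

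The genes furthest below the 17-day mouse included Hsbp1, whose product binds heat shock factor (-4.36 log2). Its single spot read 2769 in the 17-day mouse and 139.4 in the restricted mouse, a 20.5-fold difference, and it stayed at -3.69 after the correction for position. The Hsbp1 spot passed the filter through the 17-day mouse alone. Next came H3f3b, one of the genes of the replacement histone H3.3 (-2.04), where the 2 entering probes disagreed in size. The brighter probe read 5866 and 494.8 (-3.39), the other 1399 and 943.5 (-0.69). Of a pair of dimmer H3f3b probes 1 was at 0.50 and the other at -0.36; including them gave -0.53.

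Map1lc3b, which encodes a protein of the autophagosome membrane, read 1717 in the 17-day mouse and 375.8 in the restricted mouse (-1.84). A dim Map1lc3b spot on array A, at the 5.27th percentile of level, was at 0.27. Nin, of the centrosome, read 1297 and 377.5 (-1.88), but dimmer Nin spots were at 0.37 and 0.49. For Nin the bright spot alone stood apart, and the other spots of the name did not follow it. The dim Map1lc3b spot lay close to the floor at the 5th percentile and could hardly show a fall. Nlrp9b was at -1.53, with a dimmer spot at 0.24.

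A further 7 of the 12 lowest genes had no other spot on the arrays. Gstp1, a glutathione transferase of detoxification that is abundant in adult male mouse liver, read 1647 in the 17-day mouse and 564.5 in the restricted mouse (-1.65), and was at -1.03 after the correction for position. Csf1, the growth factor of macrophages, read 843 and 332.2 (-1.41), and was at -1.61 after the correction. Pls1, an actin-bundling plastin, was at -1.64, and the mitochondrial thymidine kinase Tk2 at -1.48. Man2a2, a mannosidase of the Golgi, was at -1.40, Ccdc192 at -1.66 and the tubulin ligase family gene Ttll10 at -1.35. These genes stayed at least 2-fold lower after the correction for position. Csf1, Tk2, Man2a2 and Ccdc192 passed the brightness filter through the 17-day mouse alone, as their restricted-mouse level was below it. Entry by that route favours genes that are lower in the restricted mouse.

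On the higher side the values were smaller and ended at 1.11 log2. Idi1, an isomerase of cholesterol synthesis, read 767.1 in the 17-day mouse and 1786 in the restricted mouse (1.11), and was at 0.80 after the correction for position. Rhoh, a GTPase of blood cells, read 453.4 and 1038 (1.10, corrected 0.76). Paip2, a repressor of translation that binds poly(A)-binding protein, read 2224 and 4129 (1.05), while a dimmer Paip2 spot on array B was at 0.22. Rnf14, an E3 ubiquitin ligase, read 376.5 and 831.7 (1.08), with dimmer spots at -0.11 and -0.40. Reep5, a membrane-shaping protein of the endoplasmic reticulum, was at 1.06 with dimmer spots at 0.15 and 0.03. Ehf (1.03) and the kinase gene Mapk9 (1.00) completed the group, with a dimmer Ehf spot at 0.31. The brighter Ehf spot passed the filter through the restricted mouse alone. Just short of 2-fold were Frmpd1 (1.00), Taf1 (0.99), the E3 ligase gene Rnf139 (0.99), the importin gene Kpna3 (0.99, corrected 0.48, and 0.06 with dimmer spots) and Arl14 (0.99). The Arl14 spot also passed the filter through the restricted mouse alone.

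Single spots carried nearly all of these genes. Each of the 7 higher genes had 1 entering probe, and so did 31 of the 32 lower genes, H3f3b being the exception. All 7 higher genes and 28 of the lower genes were measured on array A, and 4 lower genes on array B. Array A had 2015 genes with entering probes and array B 2104, so the calls came mostly from 1 array kind. Of the 32 lower genes, 20 stayed at least 2-fold lower after the correction for position, and 18 did so under median centring, loess, normalization over 3 arrays and the correction alike. Of the 7 higher genes, Rnf14 alone stayed at least 2-fold higher after the correction, and it was at 0.50 with normalization over 3 arrays. Under the same 4 settings alike, 0 of the 7 higher genes stayed at least 2-fold higher. The 7 higher genes lay between 1.00 and 1.11, close to the threshold. Median centring kept 6 of the 7 higher and 26 of the 32 lower genes, no scaling 6 and 23, and the demand that both mice lie above the 50th percentile 6 and 22.

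**Figure D3:**
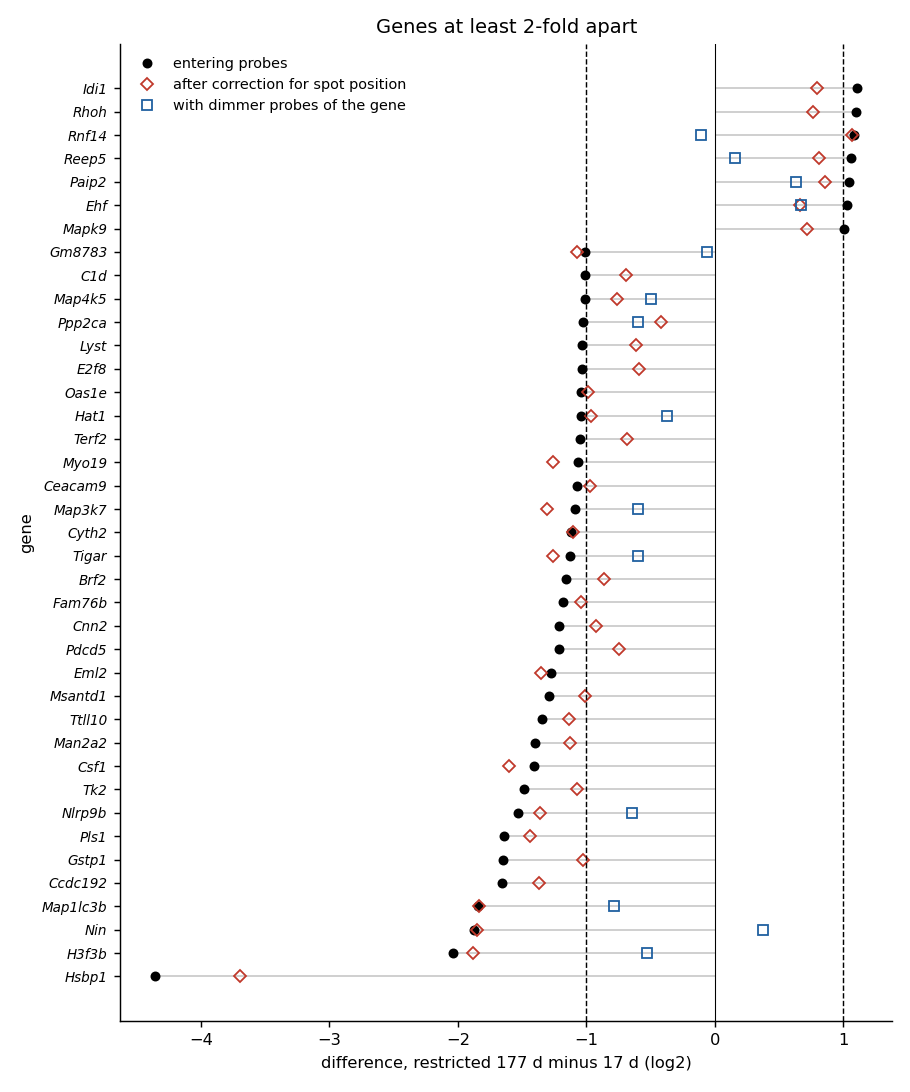
Rows are the 39 genes at least 2-fold apart, and the horizontal axis is the difference, restricted 177-day minus 17-day mouse (log2). Black points show the median of the entering probes, red diamonds the value after the correction for spot position and blue squares the value with dimmer probes of the same gene, where there are any; dashed lines mark 2-fold. Blue squares lie inside the 2-fold lines for every gene that has one, and for Nin and Rnf14 on the other side of 0.

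Genes with several probes give values that rest on more than 1 spot. No gene had at least 2 entering probes that were all 2-fold apart in 1 direction. At 1.5-fold, 3 genes were higher with every probe and 4 were lower. The higher ones were Pcnt, a centrosome scaffold (probes at 0.64 and 1.02, corrected 0.17 and 0.64), Heatr5a (0.61 and 0.63) and Arhgap29 (0.59 and 0.93). Dimmer probes of Arhgap29 lay from -0.40 to -0.14, and that of Pcnt was at 0.12. After the correction for position none of the 3 kept every probe at 1.5-fold.

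On the lower side were H3f3b, the nuclear export factor Xpo4, Cul1 and Atg7. The 3 probes of Xpo4 read 2623, 619.4 and 677.3 in the 17-day mouse and 967, 392.4 and 336.6 in the restricted mouse, with differences of -1.53, -0.72 and -0.70. After the correction they were at -1.30, -0.34 and -0.13. Cul1, the scaffold of SCF ubiquitin ligases, had entering probes at -1.10 and -0.64 and kept both at -1.01 and -0.81 after the correction. Its dimmer probes were at 0.11 and -0.19. Atg7, the activating enzyme of autophagosome conjugation, had probes at -0.63 and -0.68, but at -0.37 and -0.16 after the correction. Further genes with agreeing probes were Pwp2 (0.72), Snap23 (0.62), Mvp (0.65), Uck2 (0.57, corrected 0.19), Taf1d (0.57, corrected 0.07), Tulp3 (0.60, corrected 0.24) and Birc6 (0.55) on the higher side. Dimmer spots of the same name lay below 0 for Uck2 (-0.41), Snap23 (-0.04) and Taf1d (-0.15 and -0.72). On the lower side Pak1ip1 (-0.78), Pard3 (-0.70), Ints3 (-0.58), the transcription factor Stat3 (-0.54), Rab18 (-0.50, corrected -0.19) and Clpp, a mitochondrial protease (-0.70, corrected -0.26), followed. Dimmer spots lay above 0 for Rab18 (0.68), Pard3 (0.23, another at -0.86) and Stat3 (0.07).

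With at least 3 entering probes, 70 genes were measured and none was 2-fold apart. In 18 of them every probe had the same sign, 13 below and 5 above 0, where 57.0% of all genes lay below 0. How many genes would do so without any difference between the livers was not worked out, so the count is description only. After the correction for position 10 of the 18 kept the sign with every probe. Eef1g, a subunit of translation elongation factor 1, had the most probes of these 10. Its 5 entering probes ran from 765.9 to 5407 in the 17-day mouse and from 440.2 to 2916 in the restricted mouse. The median difference was -0.44 ± 0.171 (SD over 5 probes), and after the correction it was -0.19 with an SD of 0.0542, all 5 still below 0. The other 2 Eef1g spots, which were dimmer, lay above 0 (0.23 and 0.26). Calm2, a calmodulin gene, was at -0.29 with probes from -0.33 to -0.24, and from -0.29 to -0.25 after the correction. Scp2, a sterol carrier of peroxisomes (-0.33), the galactosyltransferase B4galt1 (-0.41) and the beta-tubulin Tubb5 (-0.36) were also below 0 with all 3 probes before and after it. Above 0 on all 3 probes, again before and after the correction, were Col18a1 (0.25) and Atp5b (0.08). Cox4i1, a subunit of cytochrome oxidase, was at 0.78 with probes from 0.21 to 0.91, but at 0.28 after the correction.

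**Figure D4:**
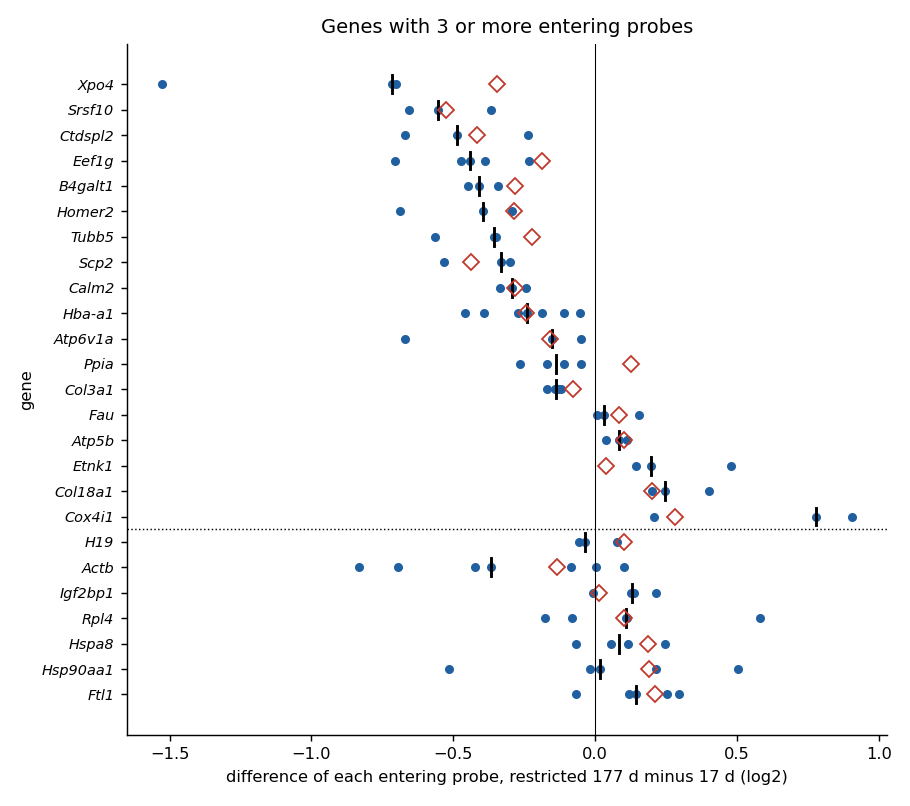
Blue points are the differences (log2) of single entering probes, black bars the median and red diamonds the median after the correction for spot position. The 18 genes above the dotted line have every probe on 1 side of 0; the 7 below it are genes with 3 or more probes shown for comparison. Probes of Eef1g run from -0.71 to -0.23, those of Actb from -0.83 to 0.10.

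Genes of fetal and neonatal liver went both ways. Of 10 measured genes 6 were above 0 and 4 below, none was 2-fold apart, and 3 lay at least 0.5 log2 from 0 (30% against 19.6% of all genes). The median was 0.04 (all genes -0.07), with a sign that changed under median centring and without scaling. H19, an imprinted RNA of fetal liver, read 1569, 7569 and 411.1 on its 3 entering probes in the 17-day mouse and 1683, 5021 and 326.3 in the restricted mouse. Its differences were -0.04, 0.08 and -0.06, the gene median -0.04 became 0.10 after the correction, and all 7 named H19 probes lay between -0.15 and 0.24. Igf2, the fetal growth factor next to H19, read 1190 and 646.2 (-0.56), with a dimmer probe at -0.52, and was at -0.30 after the correction for position. The other imprinted genes lay on both sides, from Nnat at -0.67 to Cdkn1c, an inhibitor of the cell cycle, at 0.75 (corrected 0.27). Ndn was at 0.30 (corrected -0.01). Igf2bp1, a fetal RNA-binding protein that binds the Igf2 message, was at 0.13 over 4 entering probes (corrected 0.01). Afp was not on the arrays under a single symbol.

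Cell division genes had a median slightly above 0, by an amount that depended on the setting. Of 25 measured genes 16 were above 0 and 9 below (42.9% of all genes were above 0), and none was 2-fold apart. The median was 0.11, above that of all genes in each of 6 settings. After the correction for position 14 were above and 11 below 0, with a median of 0.06. The median was 0.0083 with normalization over 3 arrays and 0.02 without scaling. Cenpa, the histone of centromeres, was at 0.77. Its dimmer probe was at exactly 0, the difference that a spot at the floor in both mice is given. Including that probe gave 0.39, which cannot be read as disagreement between the probes. For Cdk1, a kinase of mitosis, the difference was 0.55. The proliferation marker Mki67 (0.15) and the replication clamp Pcna (0.16) were above 0, and at -0.35 and -0.09 after the correction for position. Rfc3, of the clamp loader, was at -0.69 and the checkpoint kinase Bub1b at -0.56.

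Genes of red cells and their precursors had a median near 0 (-0.00061) over 10 genes, 5 above and 5 below. Hba-a1, an alpha globin, was the gene with the most spots, 12, all on array B. Its 7 entering probes ran from 445.2 to 958.2 in the 17-day mouse and from 338.6 to 738.1 in the restricted mouse. The differences ran from -0.46 to -0.05 with a median of -0.24 ± 0.145 (SD over 7 probes), and all 12 spots were below 0. After the correction the median was still -0.24, with 4 of the 7 below 0 and 3 above. Hba-a2, the neighbouring alpha globin with a nearly identical message, was at 0.26 (corrected -0.09), and the arrays may not separate the 2 genes. Ermap was at 0.35 (corrected 0.07), Car2 at 0.34 with a dimmer spot at -1.06, and Bpgm, of red cell glycolysis, at -0.23. In whole liver, fewer cells of a type and less RNA per cell cannot be told apart.

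The insulin-like growth factor and growth hormone list was lower in the restricted mouse at the median. The 6 measured genes had a median of -0.48 (all genes -0.07), 2 above 0 and 4 below, and none was 2-fold apart. Igf1, the main hepatic growth factor after weaning, read 489.9 in the 17-day mouse and 427.9 in the restricted mouse, a scaled difference of 0.12, with a dimmer probe at 0.23. Its sign turned after the correction (-0.02) and without scaling (-0.20). Binding protein genes went apart, with Igfbp3 at -0.43 (corrected -0.21) and Igfbp4 at 0.55. The growth hormone signalling kinase Jak2 was at -0.74, with dimmer probes that brought it to -0.35, and Cish, a feedback target of that pathway, was at -0.52. After the correction for position the list was 1 above and 5 below 0 with a median of -0.26, and in each of 6 settings its median lay below that of all genes.

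Genes high in adult male liver were represented by 4 genes, all below 0 (57.0% of all genes were), with a median of -0.68 and -0.49 after the correction for position. They were Gstp1 (-1.65), the alpha-1-antitrypsin gene Serpina1e (-0.84, corrected -0.74), Cyp7b1, an oxysterol hydroxylase (-0.52, corrected -0.24), and Nudt7 (-0.12, corrected -0.21). Of the 4, Gstp1 alone was 2-fold apart, and 4 genes are few for a list of 21. The list of growth and weaning genes, which shares Gstp1, had a median of -0.29 over 5 genes, and of -0.10 after the correction.

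Among hepatocyte markers the values were mixed, with 4 of 7 above 0 and a median of 0.05 that was below 0 with median centring and without scaling. Alb, the albumin gene, read 25108 in the 17-day mouse and 29199 in the restricted mouse (0.49). Its value depended on the scaling, with 0.18 under median centring, 0.89 with normalization over 3 arrays and 1.05 with loess. Fga, a fibrinogen chain, was at -0.31 (corrected -0.01), and Serpina1e is given above. The cytochrome P450 list held 4 measured genes, from Cyp7b1 at -0.52 to Cyp2s1 at 0.88 (corrected 0.48), and the conjugation list 9, of which Gstp1 was 2-fold lower and Gsto1 highest at 0.42 (corrected 0.11).

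Fuel metabolism showed single genes rather than whole pathways apart. Fatty acid oxidation had a median of 0.07 over 13 genes, 9 above 0 and 4 below (42.9% of all genes were above 0). After the correction for position 7 were above and 6 below 0, with a median of 0.04. The list median lay above that of all genes in each of 6 settings. Hsd17b4, of peroxisomal beta-oxidation, was at 0.62, Eci1 at 0.47, and Acads, the short-chain acyl-CoA dehydrogenase, at -0.52. The brighter Hsd17b4 spot passed the filter through the restricted mouse alone, and a dimmer one was at 0.01. Fat synthesis had a median of -0.12 over 10 genes, which turned to 0.03 after the correction for position. There Acly, which makes cytosolic acetyl-CoA, read 521.5 and 383 (-0.50, corrected -0.10), while Acacb and Slc25a1, the citrate carrier, were both at 0.59. Cholesterol and bile acid genes had a median of 0.04 over 12 genes with a sign that changed with the scaling. Idi1 was the 1 gene of that list past 2-fold, and its neighbours in the pathway were close to 0, with Hmgcs1 at 0.12 (corrected -0.28), Fdft1 at 0.08 (corrected -0.05) and Sqle at 0.04 (corrected 0.54).

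Gluconeogenesis and glycogen genes were 7 above and 7 below 0, with a median of -0.03. Pck2, the mitochondrial phosphoenolpyruvate carboxykinase, read 385.8 in the 17-day mouse and 757.5 in the restricted mouse (0.91, corrected 0.70). Foxo3, a transcription factor active when insulin is low, was at 0.46 (corrected 0.04) and its relative Foxo1 at -0.23 (corrected -0.46). In glycolysis and the citric acid cycle 12 of 20 genes were above 0 (median 0.03), from Pfkm, the muscle-type phosphofructokinase, at -0.61 to Pfkfb2 at 0.75 (corrected 0.19) and Ogdh at 0.51. Amino acid and urea cycle genes were 9 above and 10 below 0 (median -0.0040). Bhmt, which remethylates homocysteine with betaine, was lowest at -0.95 and stayed at -1.0 after the correction, whereas Ahcy, which forms homocysteine, was highest at 0.51.

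Antioxidant and metal-binding genes had a median of -0.11 over 20 genes and of 0.07 after the correction for position. Sod2, the mitochondrial superoxide dismutase, read 1116 in the 17-day mouse and 1575 in the restricted mouse (0.88, corrected 0.71), with a dimmer probe at 0.10. The metallothioneins went apart, Mt2 at 0.45 and Mt1 at -0.22 (corrected 0.17). Hmox1, the heme oxygenase, was at -0.50 and Txnrd1, a thioredoxin reductase, at -0.52.

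Chaperone and heat shock genes were 21 above and 16 below 0 among 37, with a median of 0.02 that changed sign with the scaling. The 1 gene 2-fold apart was Hsbp1. In the endoplasmic reticulum, Canx, a lectin chaperone, was at 0.97 from 1 spot and at 1.64 after the correction, past 2-fold. That spot passed the filter through the restricted mouse alone, and dimmer Canx spots were at -0.12 and -0.22. With normalization over 3 arrays Canx was at -0.12. Xbp1, which drives genes of the unfolded protein response, was at 0.70 and, corrected for position, at 0.08. Hspa5, the main chaperone of that compartment, read 2395 and 1581 (-0.13, corrected 0.0013), with dimmer spots at -0.50 and -0.89. The co-chaperone Dnajb4 was at -0.95 (corrected -0.99). Of the cytosolic chaperones, Hspa8 was at 0.09 over 4 probes from -0.07 to 0.25 (corrected 0.19). Hsp90aa1 was at 0.02 over 5 probes that went both ways, from -0.52 to 0.50 (corrected 0.19), and at 0.22 over all 7 spots.

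Autophagy and lysosome genes were 11 above and 20 below 0 among 31, with a median of -0.10 against 57.0% below 0 and a median of -0.07 over all genes. Of the LC3 genes, Map1lc3b was at -1.84 with its dim spot at 0.27, and Map1lc3a was at -0.52. Enzymes and carriers of LC3 conjugation were Atg3 (-0.90, corrected -0.79), Atg7 (-0.66, corrected -0.26), Atg5 (-0.32 over 2 probes at -0.32 and -0.31) and Atg12 (-0.15). Gabarapl2, a relative of LC3 attached by the same enzymes, was at 0.35. In the initiation complex Atg13 was at 0.68 and Ulk1 at 0.65 (corrected 0.24 and 0.08), while Ulk2 was at -0.49 and Atg101 at -0.22 (corrected -0.05 and -0.08). Of the nutrient-sensing genes, the growth kinase Mtor was at -0.48 (corrected -0.24), its inhibitor Sesn1 at -0.73 (corrected -0.30) and the energy-sensing kinase subunit Prkaa1 at -0.26 (corrected -0.13). Lysosomal enzymes lay on both sides, with the cathepsin Ctsb at -0.46 and the glucosidase Gaa at 0.44 (corrected 0.05).

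The longevity list of sirtuins, their NAD supply and mitochondrial biogenesis had 6 measured genes and a median of -0.10, which turned to 0.16 after the correction. Ppargc1b, a coactivator of mitochondrial genes, was at 0.55 (corrected 0.26), and Nrf1 had 3 probes from -0.47 to 0.63 (median -0.31, corrected 0.12). Sirt1 was on the arrays but did not pass the filter. Of 11 circadian clock genes on the arrays 2 passed, Tef at -0.46 and Noct, which is also called nocturnin, at 0.14 (corrected -0.10).

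Genes of protein synthesis and turnover made up larger groups with small shifts. Cytosolic ribosomal proteins had a median of -0.04 over 48 genes, 18 above 0 and 30 below, and 24 on either side after the correction for position. Rpl36a (-0.64) and Rpl30 (-0.58) were lowest and Rpl7l1 (0.55) and Rps18 (0.42) highest. Mitochondrial ribosomal proteins were 15 above and 7 below 0 (median 0.11), where 42.9% of all genes were above 0. Their median lay above that of all genes in each of 6 settings, and they ran from Mrps18b at -0.83 (corrected -0.22) to Mrpl52 at 0.95. Oxidative phosphorylation genes had a median of -0.06 over 29 genes that turned to 0.08 after the correction, with Ndufs3 lowest (-0.73) and Cox4i1 highest. Translation factors had a median of -0.17 over 24 genes, 7 above and 17 below 0 (57.0% of all genes were below 0), and of 0.03 after the correction. Eif2b1 (-0.61) and Eif2b5 (0.68) belong to the same exchange factor complex and lay on opposite sides.

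Proteasome genes were 5 above and 13 below 0 among 18, against 57.0% below 0 over all genes, with a median of -0.24 that lay below that of all genes in each of 6 settings. Psmb4, of the catalytic core, was at -0.73 (corrected -0.02), Psma1 at -0.52 (corrected -0.56) and Psma3 at 0.40 (corrected 0.12). Cytoskeleton genes were 2 above and 18 below 0 among 20 (57.0% of all genes were below 0), with a median of -0.25. After the correction 5 were above and 15 below 0, with a median of -0.11. Tropomyosin Tpm1 (-0.73) and the tubulin Tubb3 (-0.65, corrected -0.92) were lowest, and the myosin heavy chain Myh9 was highest at 0.72 (corrected 0.33). Actb, the cytoplasmic actin that many studies use as a reference, had 7 entering probes from -0.83 to 0.10 and a median of -0.37, which was -0.13 after the correction. Chromatin genes had a median of -0.14 over 43 genes, 15 above and 28 below 0, again beside 57.0% below 0 over all genes. Apart from H3f3b they ran from the arginine methyltransferase Prmt1 at -0.89 to Brd1 at 0.77 (corrected -0.50 and 0.31).

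**Figure D5:**
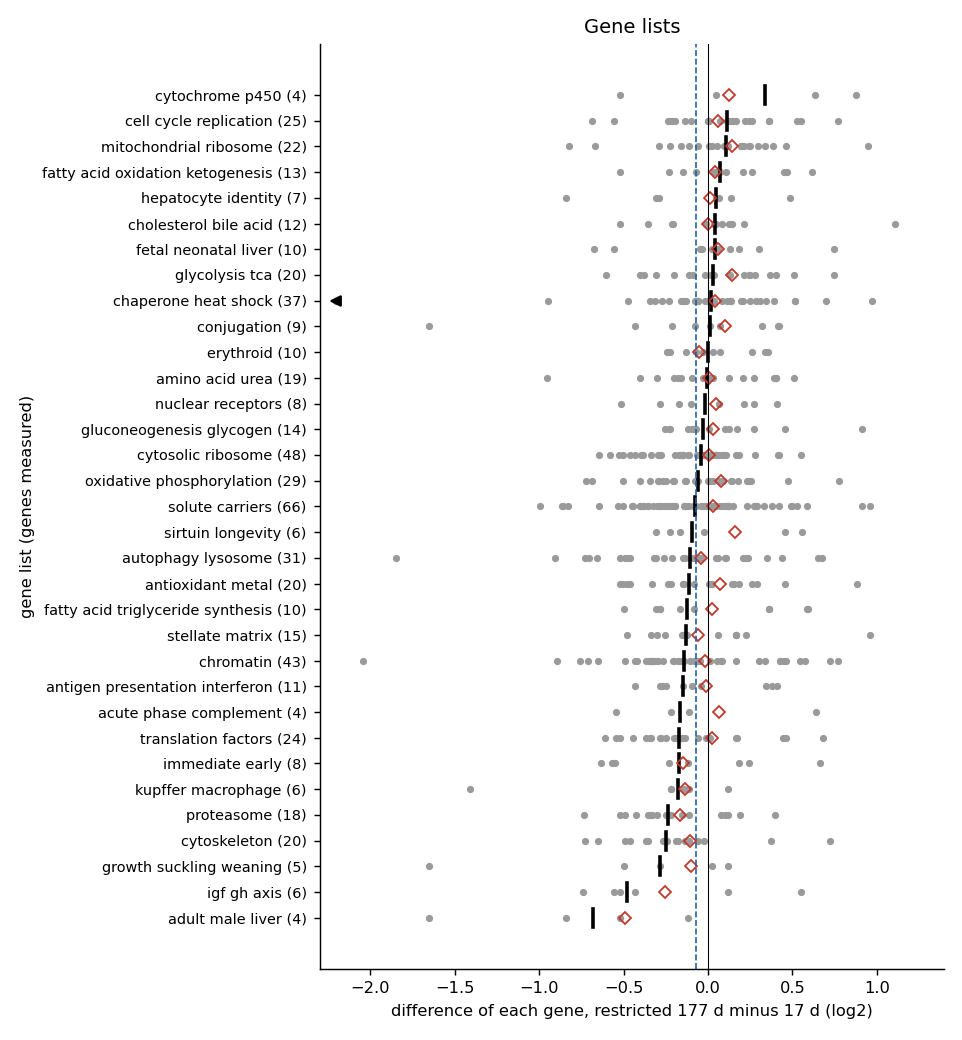
Each row is 1 of the 33 gene lists with at least 4 measured genes (number in brackets). Grey points are genes by their difference (log2), black bars the list median, red diamonds the median after the correction for spot position, and the blue dashed line the median of all 3851 genes (-0.07). The triangle marks Hsbp1, which lies off the axis at -4.36. The 22 lists with at least 10 genes have medians within 0.25 of 0.

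Markers of other liver cells were few. Of 9 macrophage genes on the arrays 6 passed the filter, and 5 of these were below 0 (57.0% of all genes were), with a median of -0.18. After the correction for position 2 were above and 4 below 0. Their summed scaled level was 10637 in the 17-day mouse and 9641 in the restricted mouse. The sum and the 5 genes below 0 include Csf1, a growth factor that acts on macrophages. Its scaled log2 level was 9.77 in the 17-day mouse and 8.36 in the restricted mouse. Apart from Csf1 the listed genes ran from Lyz2 and C1qb, both at -0.22 (corrected 0.03 and -0.04), to Fcer1g, an antibody receptor chain, at 0.12 (corrected -0.23). Matrix and stellate cell genes had a median of -0.13 over 15 genes, 6 above and 9 below 0. The collagen gene Col3a1 was at -0.14 with 4 probes from -0.17 to -0.12, Bgn at -0.48 (corrected -0.07), and Lamb1 at 0.96 with dimmer probes that brought it to 0.33. Of 3 endothelial genes all were below 0 (median -0.13, corrected -0.39), and so were both bile duct genes (median -0.25). Of the 3 lymphocyte genes on the arrays 0 passed the filter, and of 4 neutrophil genes 2, at -0.01 and 0.68. Genes of antigen presentation and interferon response were 3 above and 8 below 0 among 11, with Bst2 at -0.43 (corrected 0.06) and Stat2 at 0.41, and a median of -0.15 that was -0.01 after the correction. Whether the cell makeup of the 2 livers had a part in the other lists was not tested.

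The median of all genes moved with the setting. It was -0.07 in the main setting, -0.14 with median centring, -0.27 without scaling and -0.07 with loess. With normalization over 3 arrays it was -0.09, and after the correction for position -0.0044. Quantile normalization and loess act by level and the correction by spot position, so single genes moved by unlike amounts. Setting a list against the median of all genes does not remove such effects. Set against the median of all genes in each of these 6 settings, 9 of the 33 list medians lay below it throughout, 11 above it, and 13 changed side. No list had more than 1 gene past 2-fold, and the list medians that lay beyond 0.25 from 0 all came from lists with 6 or fewer measured genes.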

How the data were processed

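RNA from each liver was measured on arrays A and B. The deposited numbers were taken as spot intensity, not log-transformed, since they are positive and right-skewed and their medians differ between arrays. How the authors made the deposited intensity values, with label, scanner, background treatment and scaling, is not given in the sources used here. Without a known background treatment, the size of differences at dim spots is uncertain.

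Spots were named through GEO's platform annotation. On both array kinds 9663 spots had 1 symbol, 436 several and 6797 none. Of the named spots, 9641 matched RefSeq genes of GRCm38.p6 by gene number, and 0 symbols changed.

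Per array kind, intensities were floored at the 5th percentile, log2-transformed and quantile-normalized over the 2 mice. The dim arrays of a 174-day mouse were left out except in 1 alternative. Probes entered above the 50th percentile of mean level, and a gene took their median. The threshold was 2-fold. No test was made, as there was 1 mouse per side, and the number of arrays limits the precision.

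Members, 38 lists, rules and alternatives were chosen with earlier results of these data known. Named were the 12 highest and 12 lowest genes; the 10 highest and 10 lowest with at least 2 agreeing probes, by the smallest probe difference; of each list with at least 4 measured genes the members 2-fold apart and the 2 highest and 2 lowest, up to 6; and 26 fixed genes, of which 13 were measured. Other list members and the genes with at least 3 probes were named after their values were seen. The steps were tested on simulated data. The software was Python 3.11.15 with scipy 1.17.1, statsmodels 0.14.6, matplotlib 3.10.9, pandas 2.3.3 and numpy 2.4.6.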

Additional observations from a re-analysis of the deposited data

How the results depend on the processing

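The main setting gave 7 genes at least 2-fold higher and 32 lower (82.1% lower). Median centring gave 13 higher (69.0% lower), and no scaling 21 higher and 111 lower, with the median of all genes at -0.27 instead of -0.07. Normalization over 3 arrays gave 18 higher, no brightness filter 17 higher, and the 75th percentile as filter 3 higher and 14 lower. The correction for spot position gave 3 higher, and 21 of the 39 genes stayed apart in the same direction. At 1.5-fold 198 genes were higher and 297 lower (60.0% lower). Genes with at least 2 entering probes gave 0 higher and 1 lower (100% lower), and array B alone 0 higher and 6 lower (100% lower). The other counts stayed within 1.5 times those of the main setting.

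The share of genes with all probes on the same side of 0 was 54.6% without scaling, 41.0% without the filter, 41.1% with the stricter filter and 55.1% on array A alone. Without the filter Nin was at 0.37 and Rnf14 at -0.11, on the other side of 0. Of 2044 values of named genes under the alternatives, 83 moved by more than the pooled SD between probes, besides these 2. The correction for spot position alone moved 38 of the 162 named genes, and leaving out the filter moved 16. Settings such as the mean over probes moved none, since a gene with 1 entering probe keeps its value there. The total therefore does not measure how stable the named values are. No paired analysis was possible because each side has 1 mouse.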

Other observations

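Solute carriers, the membrane transporters, were the largest list, with 66 measured genes, 28 above 0 and 37 below, and 0 genes past 2-fold. Their median was -0.08 and turned to 0.03 after the correction for spot position. Highest were Slc6a6, the taurine transporter (0.96, with both of its spots above 0), and Slc2a8, a sugar transporter (0.91). The brighter Slc6a6 spot passed the filter through the restricted mouse alone. Lowest were Slc5a6, the multivitamin transporter (-0.99, with a dimmer spot at 0.11), and Slc39a14, a zinc and iron transporter (-0.86, corrected -0.37). Nuclear receptors were 4 above and 4 below 0, from Nr6a1 at -0.51 to Nr2e1 at 0.41 (corrected 0.20). Immediate early genes, which answer signals within minutes, had a median of -0.17 over 8 genes, which lay above the median of all genes without scaling (-0.11 against -0.27). Fos was at -0.63, Klf6 at -0.57 (corrected -0.27) and Rgs2, a regulator of G protein signalling, at 0.66 over 2 probes with a dimmer probe at -0.51. Of complement and acute phase genes 4 were measured, with Mbl2, a lectin of complement activation, at 0.64 (corrected 0.17).

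Spots without a single gene symbol held larger differences on the higher side than the named ones. Of 3939 such spots that passed the filter, 32 were at least 2-fold higher and 38 lower (1.78% apart), up to 3.13 and down to -1.99. Of the 4509 named spots, 12 were higher and 40 lower (1.15% apart), with a highest value of 1.27.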
